A study of Mus musculus with 8 samples.

Results

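The expression profile described here is that of mouse neutrophils that had migrated into an air pouch, a skin cavity raised under the back, after lipopolysaccharide (LPS, a component of the outer membrane of Gram-negative bacteria) had been injected into it. The profile was read from the control arrays of a study of the small GTPase Arf6, which were 5 of the 8 arrays of the series. Of these, 3 were flox controls, with the genotype flox+/+Cre-/-, which carry the floxed Arf6 allele but no Cre recombinase. The other 2 were Cre controls, with the genotype flox-/-Cre+/+, which carry Cre but no floxed allele. The remaining 3 arrays were conditional knockouts (cKO), with the genotype flox+/+Cre+/+, and served only as a view of the same genes in arrays that took no part in choosing them. The RNA on an array came from the neutrophils of 5 mice, which had been pooled and enriched by negative selection until 98% carried the surface protein Ly6G by flow cytometry. The sources used here do not give strain, age, sex or the promoter that drives Cre. A further Cre control pool, implied by the 3 pools stated for each genotype, was not analysed here. All groups were given LPS, and neither blood neutrophils nor an unstimulated pouch were part of the samples analysed, so a high level below is a level and not a response. The labels contradict one another, since the source field of each sample gives a genotype that its title and genotype entry do not. Groups follow the latter pair. Arf6 itself, the targeted gene, read 8.19, 8.20 and 7.68 in the flox controls and 7.79 and 7.86 in the Cre controls, and 6.49, 6.06 and 6.20 in the cKO arrays, so every control array lay above every cKO array.

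Neutrophils are short-lived granulocytes that are the first leukocytes to enter infected tissue in number. They make the contents of their primary (azurophil), secondary (specific) and tertiary (gelatinase) granules in that order in the bone marrow, and leave it with most of the granule protein already stored. In tissue they sense bacterial products through Toll-like receptors, kill by phagocytosis, granule release and an oxidative burst, and secrete chemokines and cytokines that draw in other leukocytes.

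Levels are log2 probe set signals of the Affymetrix Mouse Gene 2.0 ST array, so a difference of 1 is a doubling of signal. Each of 22180 genes was taken from its highest single-gene probe set and ranked within each array. Probe sets differ in how strongly they bind their transcript and the highest readings of an array, 14.10 to 14.14, lie in a compressed range, so ranks describe array signal and not numbers of transcripts. A gene is counted in the highest 1%, 5% or 25% of genes, or below the median, only where it was so in all 5 arrays. These counts held 162 genes (0.73% of those ranked), 925 genes (4.17%), 4823 genes (21.7%) and 9724 genes (43.8%). A gene is called detected where it exceeded, in all 5 arrays, the 95th percentile of 1373 olfactory and vomeronasal receptor genes, which serve as a reading of transcripts of sensory neurons. That floor lay between 5.72 and 5.89, against a median of 5.66 over the mean levels of all genes, and 8829 genes (39.8%) passed it. Correlations between control arrays over the 22180 genes ranked lay between 0.981 and 0.993 in 10 pairs. Errors are standard deviations (SD) over the 5 pools, and the number of arrays limits their precision.

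The marker genes of the cells stood high in every array, with Ly6g well below the other 4. Ccl3 (gene identifier 20302, chromosome 11), which encodes the chemokine MIP-1alpha, read 13.94, 13.97 and 13.97 in the flox controls and 14.06 and 13.99 in the Cre controls. Il1b (16176, chromosome 2), the gene of the fever-inducing cytokine interleukin-1beta, read 13.95, 13.98, 14.04, 13.96 and 13.95 in the same order. These were the genes of rank 3 and 5, with means of 13.99 ± 0.05 and 13.97 ± 0.04 (SD, n = 5), and both were among the 6 highest genes in each array. S100a9 (20202) and S100a8 (20201), neighbours on chromosome 3 that encode the subunits of calprotectin, a zinc- and manganese-binding protein of the neutrophil cytosol, had means of 13.30 ± 0.12 and 13.21 ± 0.07. S100a9 read 13.47, 13.35, 13.32, 13.15 and 13.22, and S100a8 read 13.30, 13.23, 13.23, 13.21 and 13.10, so the highest reading of each was in flox control 1 and the lowest in a Cre control. Ly6g (546644, chromosome 15), the antigen used to judge purity, read 11.47, 11.20, 10.96, 10.79 and 10.66, a mean of 11.02 ± 0.32 at rank 626. Its signal was highest in flox control 1 and lowest in the Cre controls, and it was within the highest 5% of genes in all 5 arrays.

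The 25 protein-coding genes of highest signal spanned only 13.44 to 14.05 and mixed secreted inflammatory proteins, interferon-induced genes, inhibitors of inflammation and receptors of myeloid cells. The highest was B2m, the light chain of MHC class I, at 14.02, 14.01, 14.03, 14.10 and 14.11. Ccl3 followed, then Slfn4, a myeloid member of the interferon-inducible Schlafen family, at 13.98 ± 0.04, and Il1b. Secreted proteins among the 25 also included Lcn2, which captures bacterial siderophores (13.68 ± 0.07), and the chemokines Cxcl10 (13.66 ± 0.07) and Cxcl2 (13.47 ± 0.11), the former a ligand of Cxcr3 on T cells and the latter a ligand of Cxcr2 on neutrophils.

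Enzymes among the 25 included Acod1, which makes the antibacterial metabolite itaconate, and Hdc, which makes histamine. Acod1 read 13.77, 13.86, 13.88, 13.85 and 13.77, and Hdc 13.71, 13.74, 13.85, 13.71 and 13.73, so Hdc stood apart only in flox control 3. Genes that restrain inflammation were Nfkbia, the inhibitor of NF-kappaB (13.54 ± 0.09), and Zfp36, which destabilises cytokine mRNAs (13.44 ± 0.04). Mxd1, an antagonist of MYC, read 13.84 ± 0.04. The receptors and their partners were Lilrb4a, an inhibitory immunoglobulin-like receptor (13.81 ± 0.08), Fcer1g, the signalling chain shared by Fc receptors (13.70 ± 0.03), Tarm1, an activating myeloid receptor (13.61), and Mrgpra2a, a G-protein-coupled receptor of the Mas-related family (13.59). The other 9 genes had varied roles. Eif4a1 (13.96) is an RNA helicase of translation initiation and Fth1 (13.87) the heavy chain of ferritin, the iron store. Ifitm3 (13.69) and Rsad2 (13.54) are antiviral proteins, and Ly6e (13.53) is a lipid-anchored surface protein. Plek (13.51) is a kinase substrate of platelets and leukocytes, ND4 (13.49) a mitochondrially encoded subunit of respiratory complex I, Cd53 (13.48) a tetraspanin and Rac2 (13.48) a GTPase of the oxidative burst. For Eif4a1 the choice of probe set decides the rank, since its other probe set read 8.16. The gene of rank 26 among protein-coding genes, S100a11, read 13.42, so the boundary of the list is not a gap. Over all gene types the highest reading was the small nuclear RNA Rn7sk, at 14.09 ± 0.02.

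**Figure D1:**
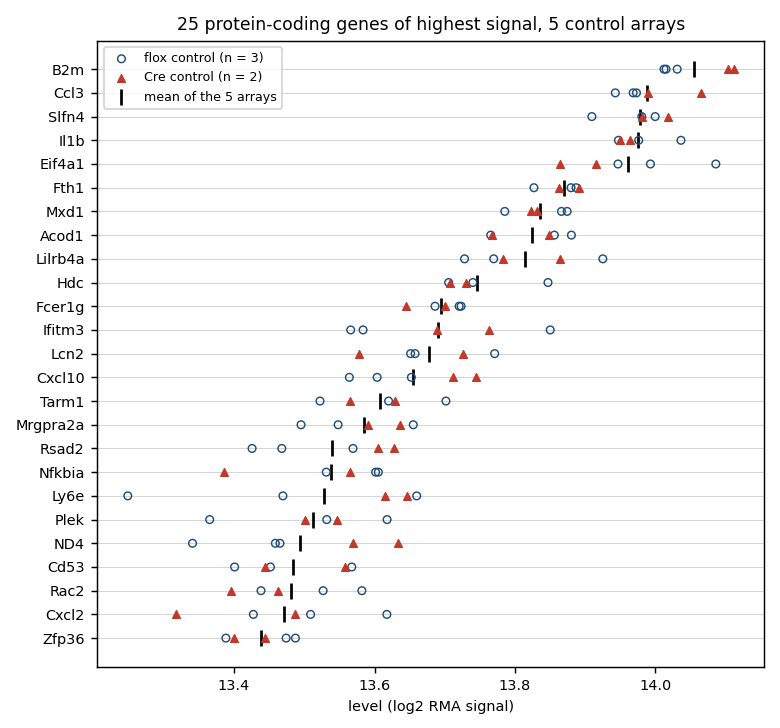
The plot of the 25 protein-coding genes of highest signal gives the log2 RMA level on the horizontal axis, with open circles for the 3 flox controls, triangles for the 2 Cre controls and a bar for the mean. All values lie between 13.25 and 14.11, and the arrays of a gene spread as widely as neighbouring genes differ, so the order within the 25 is not resolved gene by gene.

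Neutrophil identity genes had the highest median of the functional lists. Of 26 measured genes of the neutrophil core list, 25 were in the highest 5% of genes in all 5 arrays, against 4.17% of all genes, and their median was 12.36 against 5.66. This list, like the others below, was chosen with earlier results of these data known, so its share is only a description. Csf3r, the receptor for the granulocyte growth factor G-CSF, read 13.35 ± 0.07, and the chemokine receptor Cxcr2 13.25 ± 0.12. The decoy receptor Il1r2, which binds interleukin-1 without signalling, stood at 13.19 ± 0.08, close to the 13.20 ± 0.04 of Il1rn, the receptor antagonist. Retnlg read 13.14 ± 0.09. The exception was Padi4, the enzyme that citrullinates histones during release of extracellular traps, at 9.84 ± 0.14, which was in the highest 25% of genes but not the highest 5%.

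Genes of azurophil granules were near the detection floor, while those of specific and gelatinase granules were high. None of 9 measured azurophil genes was in the highest 5% in all arrays and 1 was in the highest 25%, Nkg7 (7.72 ± 0.44), which cytotoxic lymphocytes also express. Myeloperoxidase (Mpo) read 5.39, 5.30, 5.47, 5.30 and 5.46, below the detection floor in every array, and neutrophil elastase (Elane), cathepsin G (Ctsg) and Bpi had means of 5.35, 4.49 and 4.88. The list median, 5.66, equalled that of all genes. Of 16 genes of specific granules, 9 were in the highest 5% and 13 in the highest 25%, with a median of 11.54. They ran from Lcn2 and the collagenase Mmp8 (12.86 ± 0.17) down to lactoferrin (Ltf, 9.17 ± 0.54), the cathelicidin gene Camp (5.78 ± 0.60) and Crisp3 (3.25 ± 0.18). Of 11 genes of gelatinase granules, 6 were in the highest 5% and 10 in the highest 25%, with a median of 11.65. Gelatinase B (Mmp9) read 12.34 ± 0.21, and the integrin chain Itgam 12.39 ± 0.15, while Fcnb, a ficolin made by precursors, read 5.05.

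Genes of specific granules differed in spread between arrays. Ltf read 10.01, 9.27, 9.16, 8.75 and 8.64, Ngp 11.05, 10.64, 10.46, 10.26 and 9.82, and Camp 6.70, 6.02, 5.63, 5.41 and 5.15, so flox control 1 was highest and the Cre controls lowest for each of these genes, which were singled out after their values were seen. Ly6g was likewise highest in flox control 1 and lowest in the Cre controls. Elane was below the detection floor in every array, from 5.18 to 5.71. Lcn2, by contrast, read 13.66, 13.65, 13.77, 13.73 and 13.58. Of 15 genes of granulocyte precursors, 5 were in the highest 25%, and the median of the list was 6.62. Besides Ngp and Ltf these were Chil3 (10.08), Kit (8.03), the stem cell factor receptor, and the proliferation antigen Mki67 (7.75), while Top2a, Cd34 and Sox4 lay at 5.17, 5.67 and 4.90. In bulk pools, fewer cells of a type and less RNA per cell cannot be told apart.

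The machinery of the oxidative burst was high. Of 7 measured genes of the NADPH oxidase, 6 were in the highest 5%, led by Rac2, the membrane subunit Cybb (12.80 ± 0.23) and the cytosolic subunit Ncf1 (12.47 ± 0.20), and the proton channel Hvcn1 was lowest at 6.48 ± 0.19. The list of S100 proteins and annexins had 14 of 16 genes in the highest 25% and a median of 9.66. Anxa1, an annexin that limits neutrophil migration, read 11.82 ± 0.22, and S100b, a protein of glial cells, 4.61 ± 0.14.

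**Figure D2:**
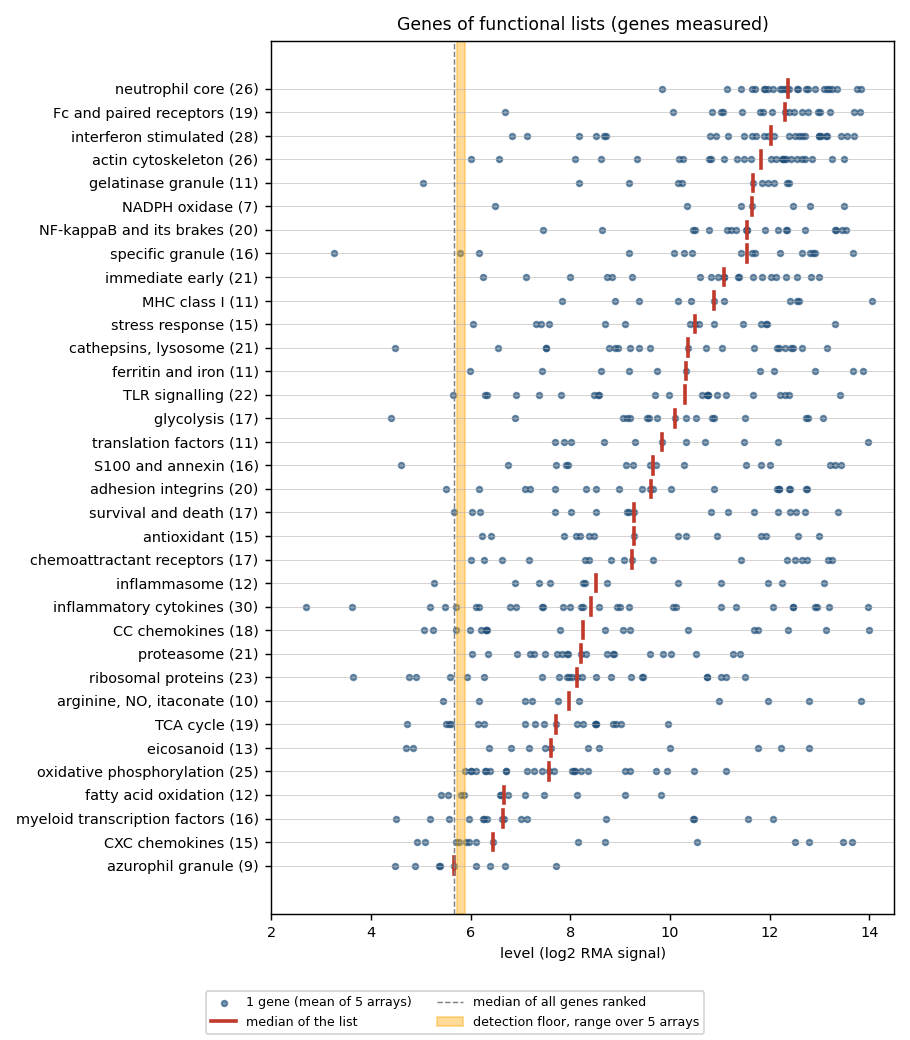
The plot of functional lists shows the mean log2 RMA level of every measured gene as a point, the list median as a red bar, the median of all 22180 genes as a dashed line and the range of the detection floor as a band. List medians fall from 12.36 for the neutrophil core to 5.66 for azurophil granules, and most lists hold both genes above 12 and genes below 8.

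Chemokine genes ranged from the top of the profile to below the floor. Of 18 CC chemokines, 5 were in the highest 5% and 10 in the highest 25%, with a median of 8.24. Besides Ccl3 these 5 were Ccl4 (13.13 ± 0.09), Ccl5 (12.37 ± 0.53), Ccl9 (11.77 ± 0.22) and Ccl6 (11.69 ± 0.21). The monocyte chemoattractant Ccl2 was lower, at 9.19 ± 0.48, and Ccl11 (eotaxin), Ccl1 and Ccl8 lay between 5.06 and 5.71. Of 15 CXC chemokines, 4 were in the highest 5%, namely Cxcl10, Cxcl2, Cxcl11 (12.78 ± 0.44) and Cxcl3 (12.50 ± 0.48), and the median was 6.46. Cxcl2 and Cxcl3 are ligands of Cxcr2. Of the other ligands of that receptor, Cxcl1 read 8.45, 8.46, 8.50, 8.13 and 7.21, with Cre control 2 lowest, and Cxcl5, which epithelial cells make, read 4.91 ± 0.16.

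The interferon-induced ligands of Cxcr3 varied in different directions among the arrays. Cxcl9 read 10.43, 9.72 and 9.08 in the flox controls and 11.93 and 11.55 in the Cre controls. Cxcl11 read 13.32, 13.14, 12.67, 12.47 and 12.30, with the Cre controls lowest, and Cxcl10 stayed between 13.56 and 13.74. Ccl5 was lowest in flox control 3, at 11.61, and highest in Cre control 1, at 12.93.

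Cytokine genes were led by the interleukin-1 family and tumour necrosis factor. Of 30 genes, 9 were in the highest 5% and 20 in the highest 25%, with a median of 8.41. After Il1b came Il1rn, Tnf (13.17, 12.83, 12.71, 13.17 and 12.81) and Il1a (12.91 ± 0.10). Csf1, the macrophage growth factor, read 12.47 ± 0.15, oncostatin M (Osm) 12.46 ± 0.23 and Il15 12.06 ± 0.10. Il6, a leading LPS-induced cytokine of macrophages, read 7.30, 7.83, 7.48, 8.13 and 8.51, a mean of 7.85 ± 0.49. Il12b and Il10 read 6.92 and 7.99. Il17a (5.18), the interferon gene Ifnb1 (3.63) and Il2 (2.70) were the lowest members, all below the floor.

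Genes for sensing LPS and for the NF-kappaB pathway were both high, the inhibitors of the pathway included. Of 22 genes of Toll-like receptor signalling, 11 were in the highest 5%, and the median was 10.30. Cd14, which hands LPS to its receptor, read 13.47, 13.49, 13.58, 13.27 and 13.29. Tlr4, the LPS receptor itself, read 10.63, 10.96, 11.28, 10.87 and 10.95, and its partner Ly96 (MD-2) 10.76 ± 0.39. The adaptor Myd88 (12.38 ± 0.13) and the inhibitory kinase Irak3 (12.31 ± 0.15) stood near one another, while the adaptors of the other Tlr4 branch, Ticam1 and Ticam2, read 6.28 ± 0.38 and 5.65 ± 0.16.

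All 20 measured genes of the NF-kappaB list were in the highest 25% and 18 were in the highest 5%, with a median of 11.55. Nfkbia and Zfp36 were followed by Dusp1, a phosphatase of MAP kinases (13.32 ± 0.12), and Tnfaip3, the ubiquitin-editing enzyme A20 (13.30 ± 0.07). The subunits Rel, Rela, Nfkb2 and Relb read 12.35, 11.90, 11.54 and 10.47. Ikbkb and Ikbkg, parts of the kinase that marks Nfkbia for degradation, were the 2 members outside the highest 5%, at 8.64 ± 0.15 and 7.45 ± 0.15. Of 12 inflammasome genes, 10 were in the highest 25%. They were led by Casp4, the murine caspase-11 that binds cytosolic LPS (13.09 ± 0.08), Nlrp3 (12.24 ± 0.16) and Casp1 (11.97 ± 0.20), with Nlrc4 at 6.88 and Nlrp1a at 5.26.

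Interferon-stimulated genes were nearly as high as the neutrophil core. Of 28 genes, 21 were in the highest 5%, 10 of them in the highest 1%, where 0.73% of all genes lay, and the median was 12.03. Ifitm3, Rsad2 (viperin), Ifit1 (13.42 ± 0.11) and the ISG15 protease Usp18 (13.15 ± 0.17) led the list, and Irf7, the transcription factor that amplifies the response, read 12.98 ± 0.17. Isg15 itself read 11.17 ± 0.11. Mx1 and Iigp1, at 7.13 ± 0.92 and 6.83 ± 0.83, were the lowest members and also varied most. Mx1 read 6.47, 6.72 and 6.25 in the flox controls and 8.22 and 8.02 in the Cre controls.

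The promoters of 6 genes named above are printed to show where these genes carry motifs of known regulators. The genes were chosen after their values were seen, and each holds a match. They are therefore examples and not typical of their classes. Of the 100 highest protein-coding genes with a promoter, 7 held a kappaB match and 13 an ISRE match, and Il1b and Tnf held neither. Each is the 250 bases before the RefSeq gene start on the strand of the gene (GRCm38.p6), at chr2:122147437-122147686 (+) for B2m, chr5:90903649-90903898 (+) for Cxcl2, chr5:92348890-92349139 (-) for Cxcl10, chr12:55492648-55492897 (-) for Nfkbia, chr19:34640639-34640888 (+) for Ifit1 and chr3:90668821-90669070 (+) for S100a8. Capitals mark a match, on either strand, to the kappaB motif in B2m, Cxcl2, Cxcl10 and Nfkbia, to the interferon-stimulated response element (ISRE) in B2m, Cxcl10 and Ifit1, and to the TATA box and the PU.1-type ETS motif in S100a8.
B2m: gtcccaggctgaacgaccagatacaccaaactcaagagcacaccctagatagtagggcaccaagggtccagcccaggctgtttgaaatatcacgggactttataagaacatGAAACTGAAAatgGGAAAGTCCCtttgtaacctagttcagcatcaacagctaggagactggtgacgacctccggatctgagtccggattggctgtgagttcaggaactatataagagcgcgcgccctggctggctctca
Cxcl2: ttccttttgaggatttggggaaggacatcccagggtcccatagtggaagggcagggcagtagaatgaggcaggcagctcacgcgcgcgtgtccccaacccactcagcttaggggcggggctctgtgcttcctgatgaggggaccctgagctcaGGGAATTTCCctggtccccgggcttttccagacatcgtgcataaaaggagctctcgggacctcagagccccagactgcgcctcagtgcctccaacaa
Cxcl10: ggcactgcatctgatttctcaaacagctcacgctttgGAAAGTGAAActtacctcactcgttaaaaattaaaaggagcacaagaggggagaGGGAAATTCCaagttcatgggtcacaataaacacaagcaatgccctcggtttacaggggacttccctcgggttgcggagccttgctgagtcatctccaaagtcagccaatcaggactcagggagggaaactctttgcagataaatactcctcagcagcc
Nfkbia: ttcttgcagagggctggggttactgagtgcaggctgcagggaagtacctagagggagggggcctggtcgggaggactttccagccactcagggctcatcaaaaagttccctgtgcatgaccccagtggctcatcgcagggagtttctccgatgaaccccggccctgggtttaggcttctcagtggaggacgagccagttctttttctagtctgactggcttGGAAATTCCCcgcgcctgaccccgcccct
Ifit1: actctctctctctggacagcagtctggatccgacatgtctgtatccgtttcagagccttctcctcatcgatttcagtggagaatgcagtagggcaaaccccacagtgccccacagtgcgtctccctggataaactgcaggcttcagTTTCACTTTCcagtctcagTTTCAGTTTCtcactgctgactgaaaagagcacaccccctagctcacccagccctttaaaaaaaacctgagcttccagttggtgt
S100a8: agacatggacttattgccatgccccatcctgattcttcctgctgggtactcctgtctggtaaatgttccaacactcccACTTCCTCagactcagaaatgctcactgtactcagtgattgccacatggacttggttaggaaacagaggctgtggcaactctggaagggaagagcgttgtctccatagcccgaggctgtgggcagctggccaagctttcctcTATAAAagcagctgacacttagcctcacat

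Counted from the gene start as +1, the kappaB match lay at -97 to -88 in Cxcl2, at -29 to -20 in Nfkbia, at -159 to -150 in Cxcl10 and at -126 to -117 in B2m. In B2m an ISRE match lay just upstream of it, at -139 to -130, and in Cxcl10 an ISRE match lay at -213 to -204. Ifit1 held a pair of ISRE matches, at -104 to -95 and -85 to -76, and no kappaB match in this window. The promoter of S100a8 held a TATA box at -30 to -25 and an ETS match at -172 to -165. B2m also held a match to the TATA motif, on the opposite strand at -152 to -147, which is not in capitals above.

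Across the profile, kappaB and ISRE motifs were more common in the promoters of high-signal genes than in all 15358 promoters searched, and the C/EBP motif was not. The window was the 300 bases from 250 before to 50 after the start, with 1 promoter per gene, and each motif was searched on both strands. GGGANNTTCC (kappaB) occurred in 7 of the 100 highest protein-coding genes (7%), against 1.41% of all promoters. Those genes were B2m, Ifitm3, Cxcl10, Nfkbia, Cxcl2, Csf3r and Gbp5. GAAANNGAAA (ISRE) occurred in 13% against 3.44%, and TATAAA in 25% against 12.9%. GAGGAAGT (PU.1-type ETS) occurred in 6% against 2.93%. TTGCNNAA (C/EBP), the motif of a family of regulators of granulocyte genes, occurred in 11% against 10%. Among the 50 highest the shares were 12% for kappaB, 12% for ISRE, 4% for ETS, 10% for C/EBP and 30% for TATA, and among the 200 highest they were 5.5%, 13%, 6.5%, 11% and 21.5%. The 100 highest genes hold members of gene clusters such as the Schlafen and Oas genes, so their promoters are not independent of one another. A match is a stretch of letters and does not show that a factor binds.

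**Figure D3:**
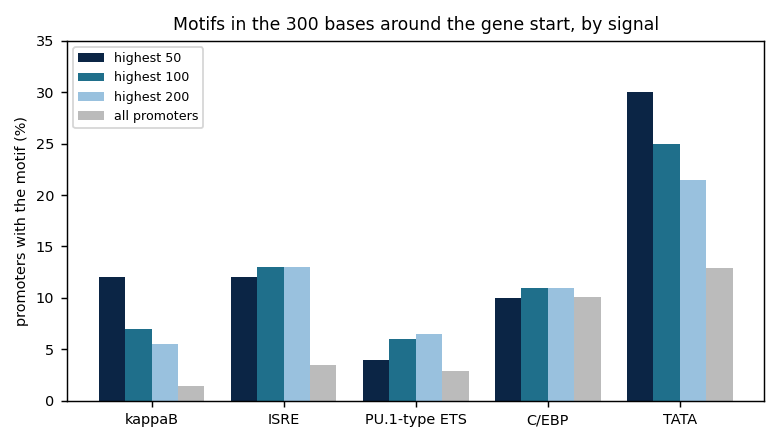
The bar chart gives the share of promoters (%) with each motif among the 50, 100 and 200 protein-coding genes of highest signal and among all 15358 promoters. The bars of kappaB fall from 12% to 5.5% as more genes are included and stay above the 1.41% of all promoters, while the C/EBP bars lie between 10% and 11% in every set.

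Receptors that neutrophils use to read their surroundings were high, above all those of the Fc and paired families. Of 19 such genes, 17 were in the highest 5% and 9 in the highest 1%, with a median of 12.31. Beyond Lilrb4a and Fcer1g these were led by the C-type lectins Clec4e (Mincle, 13.22 ± 0.05) and Clec4d (13.02 ± 0.08), which recognise microbial glycolipids. The Fc receptors for immunoglobulin G read 12.65 ± 0.23 for Fcgr4, 12.38 ± 0.03 for the inhibitory Fcgr2b and 12.31 ± 0.14 for Fcgr3. Only Fcgrt, the neonatal Fc receptor, lay outside the highest 25%, at 6.68 ± 0.23. Of 17 chemoattractant receptors, 7 were in the highest 5% and 13 in the highest 25%. After Cxcr2 came Ccrl2 (13.16 ± 0.07), a receptor that presents chemerin, the platelet-activating factor receptor Ptafr (12.75 ± 0.18) and Ccr1 (12.65 ± 0.10), a receptor of Ccl3. The formyl peptide receptor Fpr2 read 12.34 ± 0.04 and Cxcr4, which retains neutrophils in bone marrow, 11.42 ± 0.35. Cxcr1 read 7.17 ± 0.66, and Fpr1 had no single-gene probe set here.

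Adhesion genes were led by those of rolling and firm arrest. The P-selectin ligand Selplg read 12.75 ± 0.12, the beta2 integrin chain Itgb2 12.72 ± 0.08 and Icam1 12.41 ± 0.10, and 16 of 20 genes of the adhesion list were in the highest 25%. Endothelial E-selectin (Sele) was lowest at 5.50 ± 0.14. Of 26 genes of the actin cytoskeleton, 19 were in the highest 5% and 24 in the highest 25%. Their median was 11.82, or 10.94 with all probe sets of a gene averaged. After Rac2, Lcp1, which bundles actin in leukocytes, read 13.25 ± 0.06, moesin (Msn) 12.86 ± 0.11, with another probe set at 5.41, and Cap1 12.70 ± 0.05, while the myosin light chain Myl6 read 6.01 ± 0.42. Within the ADP-ribosylation factor family, the 3 highest of 6 members were Arf4 (11.97, with another probe set at 5.23), Arf1 (11.94) and Arf5 (9.69), and Arf6 was at rank 3354, with a mean of 7.94 ± 0.24.

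Iron genes were led by those that store or withhold the metal. Fth1, Lcn2 and haptoglobin (Hp, 12.90 ± 0.21) led the iron list, the phagosomal metal transporter Slc11a1 read 12.09 ± 0.21, and the transferrin receptor Tfrc was lowest at 5.99 ± 0.19. The hepcidin gene Hamp varied, at 10.13, 8.08, 7.73, 8.90 and 8.23, with flox control 1 highest. Mitochondrial superoxide dismutase Sod2 (12.98 ± 0.09) and the cystine importer Slc7a11 (12.57 ± 0.30, other probe set 8.68) led 15 antioxidant genes, of which 5 were in the highest 5% and 13 in the highest 25%. Nqo1 was lowest at 6.22 ± 0.15.

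Carbon metabolism genes had a higher median for glycolysis than for the mitochondrial pathways. Of 17 glycolysis genes, 7 were in the highest 5% and 15 in the highest 25%, with a median of 10.10. Gapdh (13.06 ± 0.15), Pkm (12.76 ± 0.16) and the glucose transporter Slc2a1 (12.74, 12.86, 12.84, 12.57 and 12.61) were the highest, although other probe sets of Gapdh and Slc2a1 read as low as 8.71 and 6.79. Pfkfb3, which makes the activator of phosphofructokinase, read 11.50 ± 0.12. Ldha, the enzyme that turns pyruvate to lactate, read 6.88 ± 0.32 and the muscle isoform Pfkm 4.39 ± 0.16. None of 19 genes of the tricarboxylic acid cycle was in the highest 5%, and their median was 7.71. Of 25 nuclear genes of oxidative phosphorylation, 2 were in the highest 5% (Cox8a, 11.13 ± 0.16, and Atp5b, 10.48 ± 0.16), with a median of 7.57, and of 12 genes of fatty acid oxidation none was, with a median of 6.67. These medians compare signals of different probe sets, and their part in the differences was not tested.

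Transcripts of the mitochondrial genome, which encodes core subunits of the same respiratory complexes, read higher than most of the nuclear genes. Of 10 mitochondrial genes ranked, ND4 (13.34, 13.47 and 13.46 in the flox controls and 13.57 and 13.63 in the Cre controls), COX1 (13.18 ± 0.15) and CYTB (12.95 ± 0.12) led, and ND6, which is encoded on the opposite strand to the others, was lowest at 9.29 ± 0.19.

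Ribosomal protein genes spanned a wide range. Of 23 listed ribosomal protein genes, 5 were in the highest 5% and 17 in the highest 25%, with a range from Rps6 (11.49 ± 0.24) to Rpl27a (3.65 ± 0.08). Their median was 8.14, or 7.44 with all probe sets of a gene averaged. Ribosomal protein genes have many processed copies in the genome, and probe sets that match several could read them together or not at all. Of 11 translation factors all were in the highest 25% and 5 in the highest 5%, with Eif4a1 first and Eef1a1 next at 12.16 ± 0.11, although another probe set of the latter read 7.13. Of 21 proteasome genes, 18 were in the highest 25%. The subunits and activators of the interferon-induced immunoproteasome, Psmb8 (11.40 ± 0.34), Psme1 (11.26 ± 0.35) and Psmb10 (10.52 ± 0.66), were the highest of them.

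Lysosomal genes were led by cathepsin B (Ctsb, 13.15 ± 0.14), the lysozyme gene of myeloid cells Lyz2 (12.65 ± 0.11) and cathepsin D (Ctsd, 12.48 ± 0.20), with 11 of 21 in the highest 5%. Of 11 MHC class I genes, all were in the highest 25%, with H2-K1 at 12.59 ± 0.09 and the peptide transporter Tap1 at 12.55 ± 0.09 after B2m. Of 13 eicosanoid genes, 3 were in the highest 5%, namely cyclooxygenase 2 (Ptgs2, 12.78 ± 0.22), the 5-lipoxygenase activator Alox5ap (12.22 ± 0.14, other probe set 7.71) and Pla2g7 (11.76 ± 0.13), while Hpgds and Alox12 lay at 4.83 and 4.69. In the list of arginine, nitric oxide and itaconate metabolism, Acod1 was followed by Arg2 (12.79 ± 0.08) and Sat1 (11.97 ± 0.16). Inducible nitric oxide synthase Nos2 read 10.97 ± 0.42, Arg1 8.17 ± 0.21 and Ass1, which regenerates arginine, 5.45 ± 0.35.

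Immediate early genes, whose transcripts appear within minutes of a stimulus, were high, and several varied between arrays. Of 21, 13 were in the highest 5% and 19 in the highest 25%, with a median of 11.08. Nr4a1 (rank 70), Ier3 (12.84 ± 0.16) and Btg1 (12.55 ± 0.10) led. Egr1 ranged from 11.96 in flox control 1 to 10.35 in Cre control 2, and Jun read 11.74, 11.15, 9.68, 10.60 and 10.92, also highest in flox control 1. The list included Myc (7.10 ± 0.31) and Klf4 (6.25 ± 0.29) as its lowest members. Gadd45b (13.31 ± 0.10) led 15 stress genes, with Xbp1, a factor of the unfolded protein response, at 11.94 ± 0.20 and Trib3 at 6.04.

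Transcription factors of the myeloid lineage were uneven. Of 16 genes, 4 were in the highest 5% (25%, against 4.17% of all genes). In the highest 25% were 5 (31.2%, against 21.7%). The list median was 6.64, against 5.66 for all genes. The 4 in the highest 5% were Stat3 (12.07 ± 0.11), Cebpb (11.56 ± 0.27), Runx1 (10.47 ± 0.12) and the PU.1 gene Spi1 (10.45 ± 0.25). Cebpe, which drives the making of specific granules in precursors, read 7.00 ± 0.23 and Gfi1 6.62 ± 0.23. Genes of cell survival had Pim1 (13.36 ± 0.13, with another probe set at 6.28) and Mcl1 (12.71 ± 0.10, with another at 8.86), the short-lived protector of neutrophils, at the top beside the death receptor Fas (12.54 ± 0.07) and Casp8 (12.40 ± 0.13), and Bcl2 at 6.19 ± 0.39 and Bad at 5.66 ± 0.10 near the bottom.

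Markers of other cells, which a sample with 98% Ly6G-positive cells could still hold, were mostly near the floor. Macrophage and antigen-presenting genes were the main exception, and some eosinophil genes were also above the floor. Of 19 macrophage and monocyte genes, 12 were in the highest 25%, and the list median ranged from 7.19 to 7.72 over the arrays. The highest, Ly6c2 (12.48), Cd68 (12.42) and Fcgr1 (12.05), can be expressed by activated neutrophils too. Csf1r read 10.33, 10.57, 10.33, 10.30 and 10.33, and Adgre1, the F4/80 antigen, 9.93, 10.38, 10.53, 10.33 and 10.66. F13a1 read 10.03 ± 0.21, Ccr2 8.29 ± 0.28 and Mrc1 8.16 ± 0.24. The complement gene C1qb read 9.03, 9.07, 7.99, 9.56 and 9.36, lowest in flox control 3, and C1qa 7.37 ± 0.22. Apoe and Trem2 read 7.49 and 7.45. The lowest members were Cd163 at 4.82 ± 0.24, below the floor, and Timd4 and Ms4a7 at 6.13 and 6.06. The part of such cells in the levels above was not tested.

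Of 15 genes of MHC class II and dendritic cells, 8 were in the highest 25%. They were Cd80 (rank 295), H2-Ab1 (10.47, 10.70, 10.14, 11.10 and 11.17), Cd209a (9.95), H2-Aa (9.35), H2-Eb1 (9.31), Cd86 (8.88), Cd40 (8.36) and H2-DMa (7.06). The defining genes of dendritic cell lineages, Zbtb46, Xcr1 and Siglech, read 5.37, 5.57 and 5.17. Of 8 eosinophil genes, 3 were in the highest 25%, a share of 37.5% against 21.7% of all genes. They were Ccr3 (7.71, 8.62, 7.87, 8.34 and 9.29), Alox15 (8.35 ± 0.75) and Siglecf (8.25 ± 0.47). Ccr3 and Siglecf were highest in Cre control 2, while the granule protein genes Epx and Prg2 read 4.94 and 5.88. The list median lay between 5.68 and 6.88 over the arrays.

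Lymphocyte markers were mostly low. Of 16 T and NK cell genes, 4 were in the highest 25%, a share close to the 21.7% of all genes, and the list median lay between 5.79 and 6.58. Granzyme B (Gzmb) read 7.64, 9.06, 7.93, 9.73 and 10.17, highest in the Cre controls, and Il7r, Nkg7 and Prf1 read 7.90, 7.72 and 7.36. The T cell receptor chain gene Cd3e read 6.31 ± 0.59 and Cd4 and Klrb1c lay below 5. Of 12 B and plasma cell genes, 1 was in the highest 25%, Ighm (9.61, 9.09, 8.79, 9.25 and 9.28). Ighm has 7 probe sets, of which the lowest read 3.19. Below the median in all arrays were 8 of the 12, against 43.8% of all genes, Ms4a1 (CD20) at 3.92 and Jchain at 4.07 among them.

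Among 11 mast cell and basophil genes the 2 in the highest 25% were Hdc and Kit, and Hdc is also in the neutrophil core list. The protease genes Mcpt4, Cma1 and Mcpt8 read 2.74, 3.86 and 5.01, and Fcer1a 3.35. Below the median in all arrays were 9 of the 11, against 43.8% of all genes. Fibroblast genes were uneven. Fap read 8.57, 9.14, 9.66, 10.53 and 10.35, Acta2 8.37 ± 0.22 and Col1a1 8.47, 8.07, 7.97, 7.32 and 8.93, and these were the 3 of 13 in the highest 25%. Postn ranged from 4.66 in Cre control 1 to 7.21 in Cre control 2, the list median from 5.83 to 7.16, and Lum and Pdgfra lay at 4.38 and 5.10. Of 11 endothelial genes, 2 were in the highest 25%, Pecam1 (9.59 ± 0.24), which leukocytes express, and Eng (7.58 ± 0.41), with Cdh5 at 5.40 and Emcn at 3.26. Of 9 adipocyte and muscle genes, 2 were, Tnnt3 (7.27) and Acta1 (7.15). None of 8 erythroid and platelet, 11 epithelial and 12 hepatocyte and neuron genes was in the highest 25%. Of 17 cell cycle genes, 3 were, Cks2 (10.11 ± 0.27), Pcna (8.42 ± 0.41) and Mki67, while Top2a, Cdk1, Ccna2 and Bub1 read 5.17, 5.10, 4.50 and 3.91. The shares in the highest 25% were 23.1% for fibroblast, 22.2% for adipocyte and muscle and 17.6% for cell cycle genes. They were 18.2% for both the endothelial and the mast cell and basophil lists. All these shares are near the 21.7% of all genes.

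**Figure D4:**
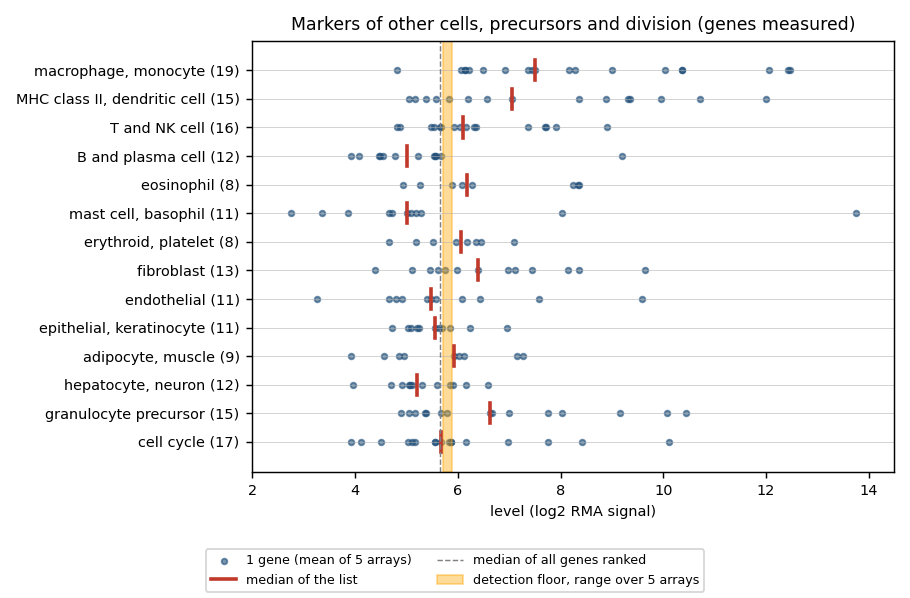
The plot of markers of other cells, granulocyte precursors and cell division shows the mean log2 RMA level of each gene as a point and the list median as a red bar, beside the median of all genes (dashed) and the detection floor (band). The macrophage and MHC class II lists have medians of 7.49 and 7.06, above the band, while B cell, mast cell, hepatocyte and neuron lists have medians of 5.01, 5.01 and 5.21, below it, with Hdc alone at 13.75.

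The genes of lowest signal were mostly of families used in sensory organs and glands. The 8 lowest protein-coding genes read between 2.19 and 2.32. They were the vomeronasal receptor genes Vmn2r68, Vmn1r216 and Vmn2r103, the olfactory receptor gene Olfr1425, the secretoglobin gene Scgb2b21, the PRAME family gene Pramel31, the ribonuclease gene Ang2, and Il22, a cytokine of lymphocytes, at 2.31 ± 0.06. Below the median in all 5 arrays were 43.8% of all genes. Of 1088 olfactory receptor genes, 986 were so, and of 285 vomeronasal receptor genes 269 were. These families also set the detection floor, so their own place below it is fixed by its choice. Vmn1r233 was an exception with 10.75 ± 0.22. Of 98 cytochrome P450 genes, 76 were below the median in all arrays and 2 were in the highest 25%, against 43.8% and 21.7% of all genes. Of these 2, Cyp4f18, which inactivates leukotriene B4 in neutrophils, read 10.37 ± 0.42.

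Agreement between the arrays was closest at the top of the profile. The median SD was 0.117 over the 222 genes of the highest 1% by mean level, 0.210 in the rest of the highest 5% and 0.225 in the rest of the highest 25%, against 0.179 over all genes. The readings of the highest genes are compressed, and the part of this in their small SD was not tested. In the highest 5% by mean level the smallest SD were those of Hnrnpc, an RNA-binding protein (10.72 ± 0.02), Rn7sk, Fth1, Fcgr2b, the GTPase gene Rap1b (12.58 ± 0.03), Fcer1g, Ist1 (11.50 ± 0.03) and Usp25 (12.99 ± 0.03).

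The genes of largest SD among those with mean level in the highest 25% were mostly split by control group. The 12 with the largest SD were Trim12a, Trim30d, Gm1966, 8430436N08Rik, Xist, Ccnyl1, Retnla, Trim34a, Trim12c, Capns2, Cxcl9 and Mid1. The SD of the last was 1.16 and that of the next gene, Adgre4, 1.14. Flox and Cre arrays did not overlap for 11 of these 12. Since they were chosen for their spread, this count is a description, and among all 5545 genes of that level 42% had no overlap. Trim12a, a member of a family of antiviral ubiquitin ligases, had a mean of 5.83 in the flox controls, with its lowest reading 5.68 in flox control 1, and read 12.15 and 12.24 in the Cre controls. Trim30d read 8.79, 7.63, 7.73, 11.86 and 11.99, and Trim12c ran the other way, at 8.99, 9.69, 9.70, 7.38 and 6.96. These genes and Trim34a and Gm1966 lie on chromosome 7.

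Of the other variable genes, Xist, the RNA that coats an inactive X, was at 5.46 in flox control 1 and between 8.73 and 9.39 in the other control arrays. The reading in flox control 1 was below the detection floor of that array, 5.76. The sex of the mice in each pool is not given. Flox control 1 was also the control array with the highest Ltf, Ngp, Camp, Ly6g and Jun, and a link to Xist was not tested. Retnla, a secreted product of alternatively activated macrophages, read 6.95, 8.32, 6.53, 8.65 and 9.88. Capns2, a calpain subunit and the gene whose groups overlapped, read 6.52, 8.16, 9.60, 9.30 and 8.97. In the 3 cKO arrays, which had no part in choosing these genes, Trim12a read 11.33, 8.83 and 10.88, between the levels of the control groups. This did not hold for all 12 genes. Xist read 10.21 in cKO array 1, above every control, Trim12c 9.79 in cKO array 2, above every flox control, and Cxcl9 9.04 in the same array, below every control.

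**Figure D5:**
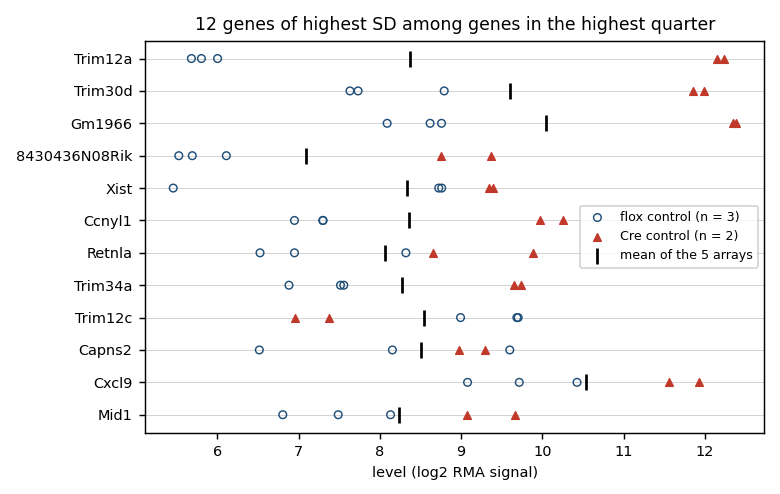
The plot of the 12 most variable genes gives the log2 RMA level of each array, with open circles for flox controls, triangles for Cre controls and a bar for the mean of the 5. Trim12a spans 5.68 to 12.24 with a gap between the groups, and Capns2 is the gene whose groups overlap.

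Some genes of high signal were neighbours in the genome. The 200 protein-coding genes of highest mean level are 1.05% of the 18984 ranked genes placed in order by RefSeq. In that order, which leaves out genes that were not ranked, 33 of the 200 lay next to another of them, in 15 runs. The number that a random order would give was not worked out. Runs of 3 were Fcgr2b, Fcgr4 and Fcgr3 on chromosome 1, Slfn2, Slfn1 and Slfn4 on chromosome 11, and Ccl3, Ccl4 and Wfdc17 on chromosome 11. Pairs included Il1a and Il1b, S100a8 and S100a9, Clec4d and Clec4e, Rsad2 and Cmpk2, Oas2 and Oas3, Ifitm3 and Ifitm6, and Gbp5 and Gbp7. Many of these are related copies, and how far their probe sets read each other's transcripts was not tested.

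The highest genes were largely the same in the cKO arrays. The 100 genes of highest mean level in the controls were taken over all gene types. Each control array had between 88 and 93 of them among its own 100 highest, which follows in part from their use in the choice. The cKO arrays, which were not used, had 87, 79 and 93.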

How the data were processed

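The authors deposited log2 intensities per probe set. Per the design text they subtracted background and normalized by Robust Multiarray Analysis (RMA) with the Expression Console of Affymetrix. The sources used here do not give its version, other arrays normalized together or the build of the probe annotation. Per the labels' protocols, 100 ng of RNA of integrity 7 or more was used, but they and the design text name different RNA and labelling reagents. RMA sets the distributions of arrays alike, so a shift shared by most genes could not be seen. No further scaling was applied, and array medians lay between 5.41 and 5.48.

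Of 34472 probe sets, 23521 carried 1 gene symbol, 1814 several and 9137 none, and only the first kind was used. Symbols were updated by gene identifier with RefSeq (GRCm38.p6), which matched 23328. The probe set of highest mean stood for each of 22180 genes, of which 1082 had several. Genes were ranked within arrays, and mean, SD and range were taken over the 5 control arrays. No test between groups was run, so there are no p-values. Single arrays that stood apart were sought with Dixon's criterion, and overlap of flox and Cre arrays was counted only to describe the spread. The numbers 1, 2 and 3 of pools follow accession order.

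Of 794 genes in 50 lists, 721 were measured. Beside the markers, the genes named were the 25 highest, 12 most variable, 8 least variable and 8 lowest, and in each list the 4 highest and 3 lowest members. Other list members were named for their role or spread after their values were seen, and for brevity not every gene the rule takes is named. The rule left predicted genes out of the 25 highest. Members and lists were chosen with earlier results of these data known. Motifs were searched by exact letters with RefSeq promoters, of which the one listed first was used for 2542 genes with several. Protein lengths were not analysed here. The code of the ranking was checked on simulated arrays in which some genes were set above or below all others. That check says nothing on the order of genes with close readings. Work was done in Python 3.11.15 with pandas 2.3.3 and numpy 2.4.6. Alternatives were other probe set rules, gene sets, arrays, scaling, floors and gene numbers.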

Additional observations from a re-analysis of the deposited data

Results flagged for a closer look

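Among 40 named genes and 50 list medians, 6 had an array that stood apart from the other 4 controls by Dixon's criterion. The criterion is set to flag about 1 in 20 groups of independent readings. These items share the same arrays, and some genes, such as Xist, were named for their spread. That rate therefore does not hold here, and the part of chance in the 6 was not tested. Hdc read 13.85 in flox control 3 and between 13.71 and 13.74 in the others, a difference that is small on the scale of the array. Xist read 5.46 in flox control 1, against 8.73 to 9.39. The median of the CXC chemokine list was 5.93 in Cre control 2, against 6.50 to 6.67. The median of the MHC class II and dendritic cell list was 7.33 in flox control 2, against 6.96 to 7.03. The median of the mast cell and basophil list was 5.25 in Cre control 1, against 4.91 to 5.01, below the detection floor throughout. The median of the adipocyte and muscle list was 5.45 in flox control 3, against 5.81 to 5.94.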

How the results depend on the processing

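The number of detected genes was the value most open to choice. It was 8829 with the floor at the 95th percentile of chemosensory receptor genes, 4567 at their 99th percentile, 9829 with the median of all single-gene probe sets as floor and 10226 where 3 of 5 arrays were enough. Leaving out 1 array gave 8901 to 9150 detected genes, 163 to 176 in the highest 1%, 926 to 965 in the highest 5%, 4866 to 4955 in the highest 25% and 9860 to 9949 below the median. It kept 24 to 25 of the 25 highest, 98 to 99 of the 100 highest and 9 to 11 of the 12 most variable genes. The 2 Cre controls alone kept 89 of the 100 highest. List medians moved by more than their SD between arrays in 9 of 50 lists when all probe sets of a gene were averaged, by up to -1.14, and in 10 with the Cre controls alone (-0.45 to 0.42). With probe sets averaged, the stress list fell from 10.50 to 9.36, Toll-like receptor signalling from 10.30 to 9.83 and glycolysis from 10.10 to 9.75. MHC class I fell from 10.89 to 10.43 and the ADP-ribosylation factor family from 9.22 to 8.67. The actin, ribosomal protein, myeloid transcription factor, and adipocyte and muscle lists also moved. No paired analysis was possible because the labels give no replicate number shared between groups and no test between groups was run. Signals near the floor, and differences among the highest, compressed readings, are beyond what these arrays resolve.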

Other observations

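Small RNA genes on the array gave a further view of the cells. Of 478 microRNA genes ranked, 49 were in the highest 25% of genes in all 5 arrays, 10.3% against 21.7% of all genes, and their median level was 4.59. The probe sets read the transcript of the gene, so these values are not levels of the mature microRNA. Among the highest were Mir27a (10.73, 11.16 and 11.05 in the flox controls and 10.35 and 10.39 in the Cre controls) and Mir23a (10.46, 10.94, 10.80, 10.32 and 10.23), which lie within 250 bases of each other on chromosome 8 and were both lowest in the Cre controls. Mir142, a gene of blood cells on chromosome 11, read 10.06 ± 0.08. Their mature sequences (RefSeq, GRCm38.p6) are shown because the 3 genes give products with different seeds, the bases 2 to 8 in capitals that pair with targets.
mmu-miR-27a-3p: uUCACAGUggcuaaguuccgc
mmu-miR-23a-3p: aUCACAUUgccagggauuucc
mmu-miR-142a-5p: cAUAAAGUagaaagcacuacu
mmu-miR-142a-3p: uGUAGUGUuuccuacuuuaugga

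Higher readings were those of Mir449b (12.04 ± 0.17), Mir692-1 (11.84 ± 0.10) and Mir1195 (11.01 ± 0.41). Of 73 small nucleolar RNA genes, which guide the chemical modification of ribosomal RNA, 22 were in the highest 5% and 55 in the highest 25%. These shares were 30.1% and 75.3%, against 4.17% and 21.7% of all genes. The median of the small nucleolar RNA genes was 9.79. Snora33 was the highest of them at 13.65 ± 0.10, although its other probe set read 6.93.

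Gene families chosen by symbol showed how uneven related genes can be. Of all genes, 4.17% were in the highest 5% and 43.8% below the median in all arrays. Of 8 Schlafen genes, 5 (62.5%) were in the highest 5%, namely Slfn4, Slfn2 (12.87 ± 0.08), Slfn1 (12.80 ± 0.04), Slfn5 (11.83 ± 0.20) and Slfn8 (11.24 ± 0.44). Of 70 Rab GTPase genes, 12 (17.1%) were in the highest 5%, led by Rab7 (13.38 ± 0.07), a GTPase of late endosomes. Of 29 histone genes measured, 19 were below the median in all arrays, and the highest was H1f2 at 8.86 ± 0.64. Of 41 beta-defensin genes, 30 were below the median in all arrays and none was detected.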
